A study of Mus musculus with 172 samples.

Results

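The acyl-CoA thioesterase genes examined here were Acot1, Acot2, Acot3, Acot4, Acot7, Acot8, Acot9, Acot11, Acot12 and Acot13. They were named as a family, to set Acot11 beside its relatives. The study had picked out Acot11 with the help of these same expression data, its change with sleep deprivation included. Where Acot11 stands among its relatives is therefore in part a description of that choice. All 10 genes were listed among the 16308 genes of the expression tables, 9 of them among 14896 genes in cerebral cortex and 10 among 14107 in liver. Acot12 was listed in liver and not in cortex. The series profiled mRNA in a mouse panel of recombinant inbred BXD lines, which descend from crosses of the strains C57BL/6J and DBA/2J and carry a fixed mixture of both parental genomes. Each line gave a pool of RNA from adult male mice left undisturbed (Ctr) and another from mice kept awake by gentle handling for 6 h from light onset (SD, sleep deprivation), both taken at the same time of day. The comparisons used 39 pools per tissue and condition: 33 BXD/RwwJ lines, 2 pools each of C57BL/6J and DBA/2J taken early and late in the breeding phase, and the reciprocal crosses "C57/BL/J x DBA/2J F1" and "DBA/2J x C57/BL/J F1", written below as B6D2F1 and D2B6F1. The labels name no transgene, deletion or drug in any group. A further 4 BXD/TyJ lines (BXD5, BXD29, BXD29t and BXD32) were kept for alternative settings, so that the tables held 172 libraries from 43 pools per tissue and condition. A pool is the unit of replication. Where a count below is given out of 39 lines, it counts pools, with the 2 pools of C57BL/6J and of DBA/2J each counted singly. The p-values measure the spread between pools, most of them of different lines, and not between mice of a line. Mice of both conditions within a line share a genotype, so that each change was taken within the line.

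Acyl-CoA thioesterases cleave an activated fatty acid, acyl-CoA, into the free fatty acid and coenzyme A, the reverse of the step that acyl-CoA synthetases catalyse. Their 2 structural groups arose independently and meet the same substrates in different compartments. Acot1 (cytosol), Acot2 (mitochondria), Acot3 and Acot4 (peroxisomes) share an alpha/beta-hydrolase fold and lie side by side in the genome, and several of them are known targets of the fatty acid receptor PPARalpha. Acot7, Acot8, Acot9, Acot11, Acot12 and Acot13 carry hotdog-fold domains. Among these, Acot7 is the main brain enzyme, Acot8 is peroxisomal, Acot9 is mitochondrial, and Acot13 (also Them2) works with the phosphatidylcholine transfer protein Pctp. Acot11 (also Them1) and Acot12 add a START lipid-binding domain. Acot11 is best known from brown fat, where its loss raises energy expenditure, and Acot12 is a cytosolic liver enzyme that prefers acetyl-CoA.

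In the mm9 genome Acot11 lies on the minus strand at chr4:106417160-106477603, and Acot7 on the plus strand of the same chromosome at chr4:151552243-151645964. Acot2 (chr12:85328811-85334823), Acot1 (chr12:85350448-85358621), Acot4 (chr12:85379329-85385673) and Acot3 (chr12:85393094-85400515) stand in that order on the plus strand of chromosome 12. Acot9 is X-linked (chrX:151696986-151732197), Acot8 lies at chr2:164618268-164630382, and Acot12 (chr13:91881117-91925753) and Acot13 (chr13:24909817-24923386) share chromosome 13. The sequence of the cluster sets how far its members can be read apart. Over aligned coding bases Acot1 and Acot2 were 95.5% identical, with a longest shared run of 273 bases, and 32.5% of the 100-base stretches of the Acot1 transcripts recurred in another Acot gene, mostly Acot2. The share was 17.1% for Acot2, 5.63% for Acot3, 0.988% for Acot4, 0.968% for Acot9, which shares it with Acot10, and 0 for Acot7, Acot8, Acot11, Acot12 and Acot13. How reads from the shared stretches were split is not given in the sources used here, so levels of Acot1 and Acot2 are less certain than the others. Acot11 and Acot12, the START-domain pair, were 63.4% identical over aligned coding bases. The pair of stretches below, each within 1 exon (Acot1 coding bases 760 to 930 at chr12:85357829-85357999; Acot2 coding bases 883 to 1053 at chr12:85333551-85333721, mm9, plus strand), is shown because the 2 genes can be told apart there, inside near-identical sequence. Capitals mark the 14 of 171 bases that differ.
Acot1: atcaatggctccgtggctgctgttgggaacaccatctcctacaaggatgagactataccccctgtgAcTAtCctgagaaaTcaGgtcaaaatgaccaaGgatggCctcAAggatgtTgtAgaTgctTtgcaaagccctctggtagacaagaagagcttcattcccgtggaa
Acot2: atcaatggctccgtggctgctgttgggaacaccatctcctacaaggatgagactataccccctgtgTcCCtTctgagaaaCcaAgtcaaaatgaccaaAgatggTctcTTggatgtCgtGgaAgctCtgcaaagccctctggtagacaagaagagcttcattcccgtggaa

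Acot11 has 2 RefSeq transcription starts 5176 bases apart, and the counts per gene cannot separate their transcripts. The bases before each start are shown because Acot11 had the largest s.d. between lines among the members in liver and changed with SD in opposite directions in the tissues. They come from the RefSeq promoter table and were matched to mm9 on the minus strand: 250 bases before start 1 (chr4:106477613-106477862) and 235 bases before start 2 (chr4:106472452-106472686), the 15 bases next to start 2 being left out because they fall in an annotated exon. Capitals mark the motif CACGTG, the E-box of clock and related factors, whose first base stands at -154 from start 2.
Acot11 start 1: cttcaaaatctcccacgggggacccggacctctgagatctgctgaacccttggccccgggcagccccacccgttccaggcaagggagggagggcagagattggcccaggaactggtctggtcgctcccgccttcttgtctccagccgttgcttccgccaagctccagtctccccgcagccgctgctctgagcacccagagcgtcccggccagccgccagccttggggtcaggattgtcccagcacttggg
Acot11 start 2: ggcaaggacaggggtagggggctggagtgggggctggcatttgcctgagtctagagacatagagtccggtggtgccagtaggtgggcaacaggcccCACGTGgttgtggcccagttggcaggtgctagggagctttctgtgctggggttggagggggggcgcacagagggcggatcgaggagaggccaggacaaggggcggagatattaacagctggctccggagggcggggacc
CACGTG, searched on both strands, occurred in 7.15% of 32851 mouse promoters of the table (250 bases before to 50 after a start) and in 2 of 11 promoters of members, those of Acot11 start 2 and Acot4. The PPARalpha-type motif DR1 (AGGTCA, any base, AGGTCA) occurred in 0.0396% of promoters and in 0 of the 11. The common CCAAT occurred in 37.4% and in 8 of the 11. Overlapping promoters of Acot3 both count among these 8 and among the 11, and Acot13 has no promoter in the set. These matches describe letters only.

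The number of counted reads per library, which is not the number sequenced, differed between the tissues. The cortex libraries held between 18995492 and 28998853 counted reads and the liver libraries between 4681101 and 8269401. In Ctr libraries a count of 0 would be written as a log2 CPM (log2 of reads scaled to a common library total) of about -2.77 in liver and -4.51 in cortex, and no member was at 0 in any library used. The tissue labels held against markers: summed neuronal genes lay between 7457 and 8720 CPM in every cortex library, and hepatocyte genes between 2179 and 3656 CPM in every liver library, with all 5 genes of either list listed. Some libraries stood apart from the median of their tissue and condition across genes. The median deviation was 3.89 times the usual value in the BXD70 liver SD library, 3.04 times in the BXD90 cortex Ctr library and 2.09 times in the BXD50 liver SD library. Next came the liver Ctr libraries of D2B6F1 (1.94 times) and BXD50 (1.91 times) and the cortex Ctr library of BXD56 (1.89 times). Several results below are given with and without BXD50, BXD56, BXD70 or BXD90.

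In undisturbed cortex, Acot7 was the most abundant member per length of transcript. Levels between genes were compared as log2 CPM per kb of exon, mean over 39 Ctr pools ± s.d., a level and not a difference. The exon length is 1 GENCODE value per gene (6080 bases for Acot11, 721 for Acot13), while reads were counted per RefSeq gene. Tests over pools do not measure error in that length, in cortex or in liver. Before scaling by length, cortical Acot11 (5.65 log2 CPM) stood above Acot13 (5.19). Per kb of exon the order was Acot7 (6.55 ± 0.080), Acot13 (5.66 ± 0.13), Acot11 (3.04 ± 0.15), Acot9 (2.27 ± 0.11), Acot8 (1.87 ± 0.13), Acot1 (1.34 ± 0.27), Acot2 (0.64 ± 0.20), Acot3 (-0.30 ± 0.24) and Acot4 (-0.78 ± 0.25). Every neighbour in this cortical order differed from the next (sign-flip permutation test, 100000 resamples, two-sided, adjusted p = 1.4e-05 over 17 neighbour pairs in both tissues, from the smallest p these resamples can give, 1e-05). The peroxisomal genes of the cluster on chromosome 12 were thus near the bottom in brain, with a mean of 48.3 reads for Acot3 and 33.0 reads for Acot4 per library.

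The liver order was another. Acot13 (6.29 ± 0.13) and Acot12 (6.25 ± 0.11) stood at the top and did not pass the test against each other (adjusted p = 0.053, permutation). Acot7 followed at 4.99 ± 0.14. Acot4 (4.36 ± 0.31) and Acot8 (4.24 ± 0.15) came next and did not pass either (adjusted p = 0.062, permutation). Acot1 (3.74 ± 0.49), Acot9 (3.05 ± 0.26) and Acot3 (2.33 ± 1.13) each lay below the gene before them. Acot3, Acot11 (1.86 ± 1.34) and Acot2 (1.75 ± 0.48) closed the order, and neither Acot11 against Acot3 (adjusted p = 0.136, permutation) nor Acot11 against Acot2 (adjusted p = 0.619, permutation) passed. On this scale Acot11 therefore came after Acot7 and Acot13 in cortex and within the lowest 3 of 10 in liver. The liver tables hold no very dense gene. Their densest gene averaged 1.78 reads per exon base, where the densest cortical gene averaged 43.5, and Acot12 and Acot13 lay at 0.504 and 0.512 reads per exon base. Whether the liver levels of such abundant genes are compressed was not tested.

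**Figure D1:**
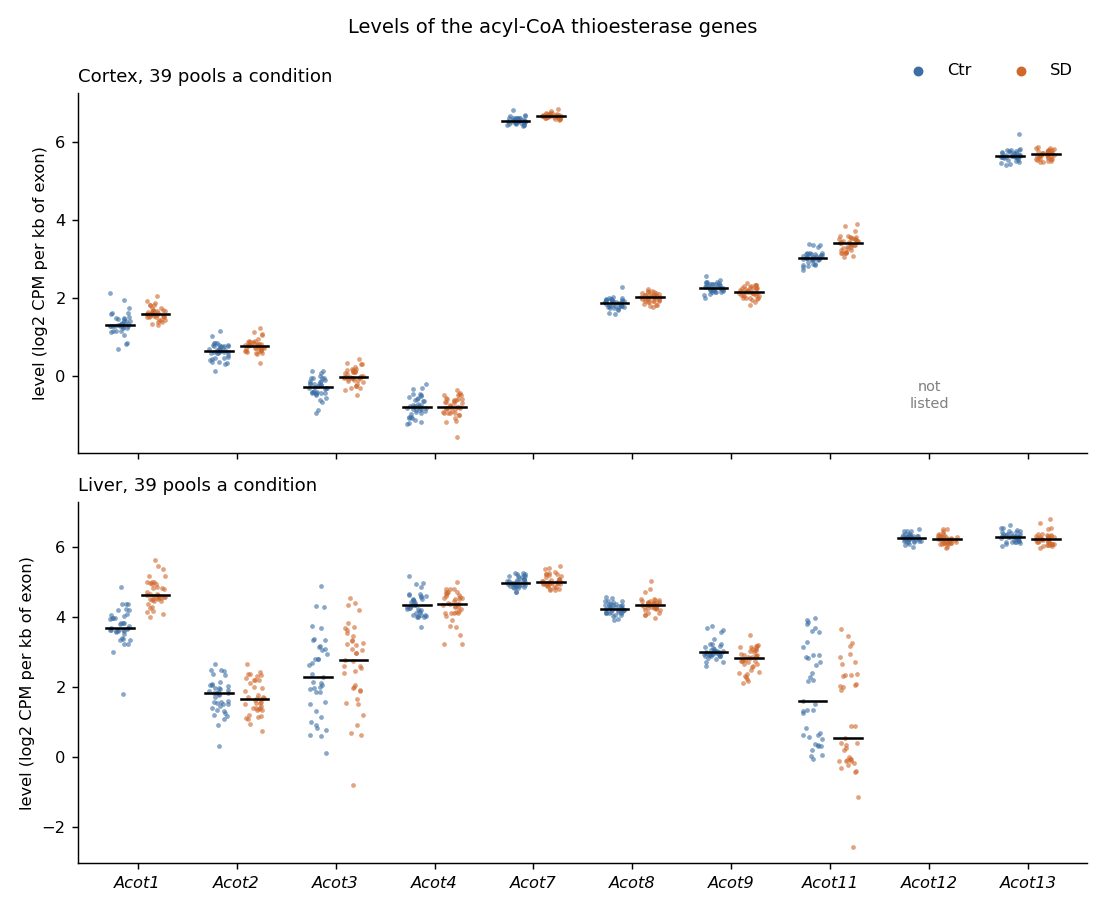
Level of each acyl-CoA thioesterase gene as log2 CPM per kb of exon in Ctr and SD pools, cortex and liver in separate panels; each point is 1 of 39 pools and the bar is their median. Acot7 and Acot13 lead in cortex, Acot13 and Acot12 lead in liver, and the liver points of Acot3 and Acot11 spread far more widely than those of the other members.

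Sleep deprivation raised Acot11 in cortex and lowered it in liver. In cortex, Ctr pools of Acot11 ran from 5.32 (BXD48) through a median of 5.63 to 6.00 log2 CPM (BXD55), and SD pools from 5.65 (BXD98) through 6.01 to 6.50 (BXD95). The ranges overlapped, but 37 of 39 lines were higher after SD. The mean paired change was 0.36 on the log2 scale (SE 0.029, 95% interval 0.30 to 0.42), a 1.28-fold rise, with an adjusted p of 4.4e-15 (limma with line as a block, Benjamini-Hochberg over all listed genes, used for every change below). Single lines went from -0.06 in BXD101 to 0.87 in BXD66. In bulk tissue, fewer cells of a type and less RNA per cell cannot be told apart, here or in any result below.

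In liver, Ctr pools of Acot11 ran from 2.55 (BXD85) through 4.22 to 6.58 log2 CPM (BXD100), and SD pools from 0.05 (BXD48) through 3.14 to 6.26 (BXD100). The groups overlapped almost completely, because the lines lay so far apart, and the fall showed only within lines: 36 of 39 were lower after SD. The mean change was -0.77 (SE 0.093, 95% interval -0.96 to -0.59), a level 0.585 times that of Ctr, with adjusted p = 1.2e-09. Without the line as a block the same mean change had adjusted p = 0.0362. Leaving out BXD50 and BXD70 gave a mean change of -0.79 (adjusted p = 2.2e-09). The 3 lines in which Acot11 was higher after SD were BXD95 (0.15), BXD61 and BXD83. The deepest fall was in BXD48, from 60 reads to 5 reads, a change of -3.17.

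The opposite movement held up as a difference between tissues. Taken line by line, the liver change of Acot11 minus its cortex change averaged -1.13 (SE 0.098, 95% interval -1.33 to -0.93), was negative in 38 of 39 lines and had adjusted p = 2.6e-13, or 0.00173 when the lines were not paired across libraries. Of all genes listed in both tissues, 57.6% differed between tissues by this test, 28% with the change higher in liver and 29.6% with it lower. Of the 9 members listed in both, 5 did: Acot1 with the change higher in liver, and Acot7, Acot9, Acot11 and Acot13 with it lower.

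**Figure D2:**
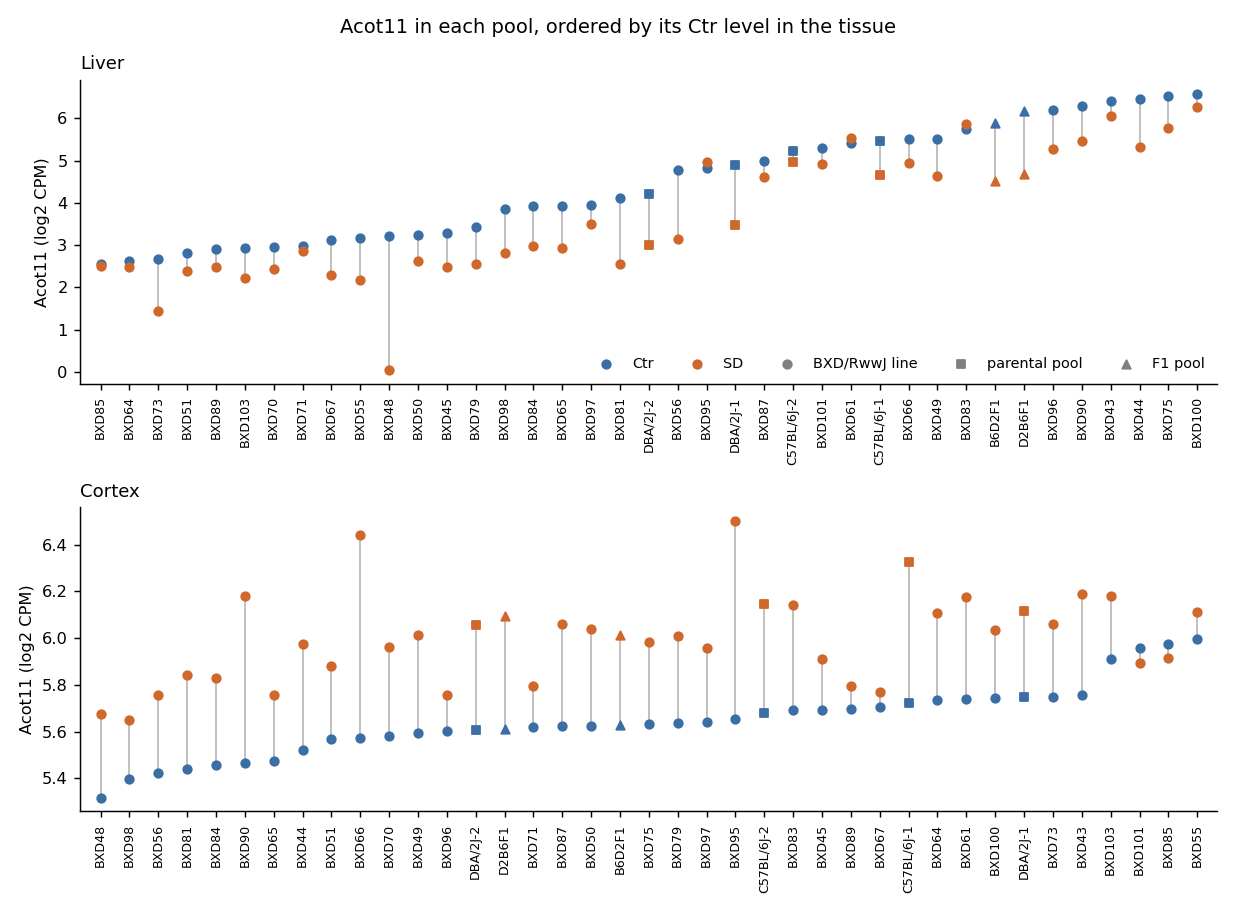
Acot11 log2 CPM in every pool, lines ordered by their Ctr level, liver in the upper panel and cortex in the lower; a vertical segment joins the Ctr and SD pool of a line. Liver segments point down in 36 of 39 lines and span a 16.4-fold range of Ctr levels between BXD85 and BXD100, while cortex segments point up in 37 of 39.

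Acot1, the cytosolic enzyme of the chromosome 12 cluster, went up in both tissues. Its liver Ctr pools ran from 2.43 (BXD81) through 4.32 to 5.49 log2 CPM (BXD50), and its SD pools from 4.65 (BXD89) through 5.26 to 6.26 (BXD70). The ranges overlapped, and Acot1 was higher after SD in all 39 lines, where 2.4% of liver genes moved in a common direction in every line. The mean liver change was 0.95 (SE 0.065, 95% interval 0.82 to 1.08), a 1.93-fold rise with adjusted p = 8.3e-17, from 0.28 in BXD85 to 2.46 in BXD81. Leaving out BXD50 and BXD70 gave a liver rise of 0.94 (adjusted p = 1.0e-16). In cortex its Ctr pools ran from 1.34 (BXD85) through 1.95 to 2.77 (BXD56) and its SD pools from 1.95 (BXD97) through 2.24 to 2.70 (BXD101). Cortical Acot1 rose by 0.27 (SE 0.042, adjusted p = 2.0e-07), a 1.20-fold rise, with 35 of 39 lines higher and BXD90 lowest at -0.40, and it rose by 0.30 (adjusted p = 4.7e-10) without BXD56 and BXD90. The liver rise exceeded the cortical rise by 0.68 (SE 0.081, adjusted p = 1.4e-09) and did so in 37 of 39 lines.

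Acot2, the mitochondrial twin of Acot1, did not follow it in liver. Its liver Ctr pools ran from 1.44 (BXD81) through 2.95 to 3.79 log2 CPM (BXD44) and its SD pools from 1.87 (BXD73) through 2.79 to 3.80 (BXD51), overlapping throughout. The mean change was -0.04 (SE 0.082, 95% interval -0.21 to 0.12, adjusted p = 0.692), with 23 lines lower and 16 higher. Cortical Acot2 went from 1.27 (BXD61), 1.77 and 2.28 (BXD56) in Ctr pools to 1.47 (BXD61), 1.90 and 2.36 (BXD95) in SD pools. That is a rise of 0.14 (SE 0.035, adjusted p = 4.8e-04) with 30 of 39 lines higher, and of 0.21 after quantile normalization. The Acot2 difference between tissues was -0.18 (adjusted p = 0.107), and it passed when BXD81 was left out (-0.22, adjusted p = 0.0304) and without BXD50, BXD56, BXD70 and BXD90 (-0.24, adjusted p = 0.0385). BXD81 held the lowest liver Ctr pool of Acot1, Acot2 and Acot3.

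Acot3, a peroxisomal long-chain enzyme, rose in cortex, and its liver change did not pass. Cortical Ctr pools ran from 0.42 (BXD65) through 1.09 to 1.50 log2 CPM (BXD83) and SD pools from 0.90 (BXD56) through 1.36 to 1.82 (BXD71). The rise was 0.29 (SE 0.051, adjusted p = 1.5e-06), or 1.22-fold, in 32 of 39 lines. In liver its Ctr pools ran from 1.50 (BXD81) through 3.65 to 6.25 (BXD51) and its SD pools from 0.58 (BXD95) through 4.16 to 5.92 (BXD48). Liver lines went in either direction, 20 up and 19 down, with a mean of 0.31 (SE 0.17, 95% interval -0.03 to 0.65, adjusted p = 0.121). The highest liver change of Acot3, 3.78, came from BXD70, whose SD library stood apart, and without BXD50 and BXD70 the mean was 0.21 (adjusted p = 0.248). With the 4 BXD/TyJ lines added the mean was 0.37 (adjusted p = 0.0455). The Acot3 difference between tissues was 0.02 (95% interval -0.32 to 0.35, adjusted p = 0.941), an interval that leaves room for a change of either sign.

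Acot4, the peroxisomal enzyme for succinyl-CoA and other dicarboxylic acyl-CoAs, gave no called change. Liver Ctr pools ran from 5.04 (BXD95) through 5.66 to 6.48 log2 CPM (BXD51), SD pools from 4.54 (DBA/2J, second pool) through 5.69 to 6.33 (BXD48), and the change was -0.05 (95% interval -0.16 to 0.06, adjusted p = 0.486). In cortex, at a mean of 33.0 reads, the change was -0.001 (95% interval -0.12 to 0.12, adjusted p = 0.989). The s.d. of cortical Ctr pools was 0.252, beside 0.251 from counting error alone at that depth.

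Acot7, the major brain thioesterase, rose slightly and evenly in cortex. Its Ctr pools lay between 7.51 (BXD50) and 7.92 (BXD90) with a median of 7.63 log2 CPM, and its SD pools between 7.66 (BXD83) and 7.93 (BXD66) with a median of 7.76. The rise of 0.12 (SE 0.013, adjusted p = 4.1e-11), or 8.69%, occurred in 38 of 39 lines. The exception was BXD90, whose Ctr cortex library stood apart. After quantile normalization the rise was 0.07. In liver Acot7 changed by 0.04 (95% interval -0.02 to 0.09, adjusted p = 0.237). The tissue difference of -0.08 had adjusted p = 0.0205 and was not called without pairing of lines (0.0731), with median-centred libraries (0.0591), after quantile normalization (-0.05, adjusted p = 0.230) or in the 33 BXD/RwwJ lines alone (0.0623).

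Acot8, which ends peroxisomal beta-oxidation by releasing fatty and bile acids from coenzyme A, rose in both tissues. In cortex it went from 2.57 (BXD98), 2.87 and 3.28 (BXD90) in Ctr pools to 2.77 (BXD89), 3.02 and 3.22 log2 CPM (BXD97) in SD pools, a rise of 0.14 (SE 0.028, adjusted p = 1.1e-05) in 33 of 39 lines. In liver it went from 4.91 (BXD70), 5.22 and 5.56 (BXD50) to 4.98 (BXD73), 5.34 and 6.01 (BXD70), a rise of 0.11 (SE 0.035, adjusted p = 0.0062) in 27 of 39 lines. The lowest Ctr pool and the highest SD pool of liver Acot8 were both BXD70, and without BXD50 and BXD70 the rise was 0.08 (adjusted p = 0.0058). The difference between tissues, -0.03 (95% interval -0.12 to 0.06), did not pass (adjusted p = 0.572).

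Acot9, a mitochondrial enzyme, was the member that fell in both tissues. Cortical Ctr pools ran from 3.19 (BXD67) through 3.44 to 3.76 log2 CPM (BXD90) and SD pools from 3.02 (DBA/2J, first pool) through 3.34 to 3.57 (BXD79). The change was -0.12 (SE 0.027, adjusted p = 8.9e-05), negative in 31 of 39 lines. Liver Ctr pools ran from 3.79 (BXD51) through 4.17 to 4.93 (BXD98) and SD pools from 3.29 (DBA/2J, second pool) through 4.00 to 4.66 (BXD98). The liver change was -0.27 (SE 0.054, adjusted p = 4.5e-05), again negative in 31 of 39 lines, and lowest in B6D2F1 at -1.15. The Acot9 fall was deeper in liver by -0.15 (adjusted p = 0.0393). That difference was not called when any of 13 pools was left out singly (adjusted p from 0.0508 to 0.0729), namely BXD44, BXD61, BXD67, BXD73, BXD79, BXD81, BXD90, BXD95, BXD100, BXD103, the first C57BL/6J pool, B6D2F1 and the second DBA/2J pool.

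Acot12 and Acot13, the most abundant liver members per kb of exon, gave no called change with SD. Acot12 in liver went from 7.72 (BXD71), 7.97 and 8.22 (D2B6F1) in Ctr pools to 7.68 (BXD73), 7.93 and 8.23 log2 CPM (BXD48) in SD pools, a change of -0.04 (95% interval -0.08 to 0.0008, adjusted p = 0.0926). Acot13 in liver went from 5.54 (BXD56), 5.81 and 6.14 (BXD55) to 5.48 (BXD75), 5.74 and 6.33 (BXD70), a change of -0.06 (adjusted p = 0.0799). Neither passed, but both stood close to the threshold. Whether compression of dense liver genes, as raised above for levels, also narrowed these changes or the spread between lines was not tested. Acot12 passed without BXD90 (-0.05, adjusted p = 0.0314) and after quantile normalization (0.00496). Liver Acot13 passed without BXD70 (-0.07, adjusted p = 0.0103), without BXD56 (0.0485), without BXD50 and BXD70 (-0.08, adjusted p = 0.00553) and with the 4 BXD/TyJ lines (0.0442). Cortical Acot13 went from 4.93 (BXD101), 5.18 and 5.73 (BXD90) to 5.01 (BXD101), 5.21 and 5.40 (BXD97), a change of 0.02 (adjusted p = 0.181) that passed without BXD90 (0.03, adjusted p = 0.0287) and without BXD56 and BXD90 (0.04, adjusted p = 0.0178). The Acot13 difference between tissues, -0.08 (adjusted p = 0.0268), was lost without pairing of lines (0.138), with median-centred libraries (0.0826), after quantile normalization (0.0926), with parental pools averaged per strain (0.0554) and without BXD79, BXD85 and BXD101 (0.0583). In the 33 BXD/RwwJ lines alone it was -0.05 (adjusted p = 0.234).

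**Figure D3:**
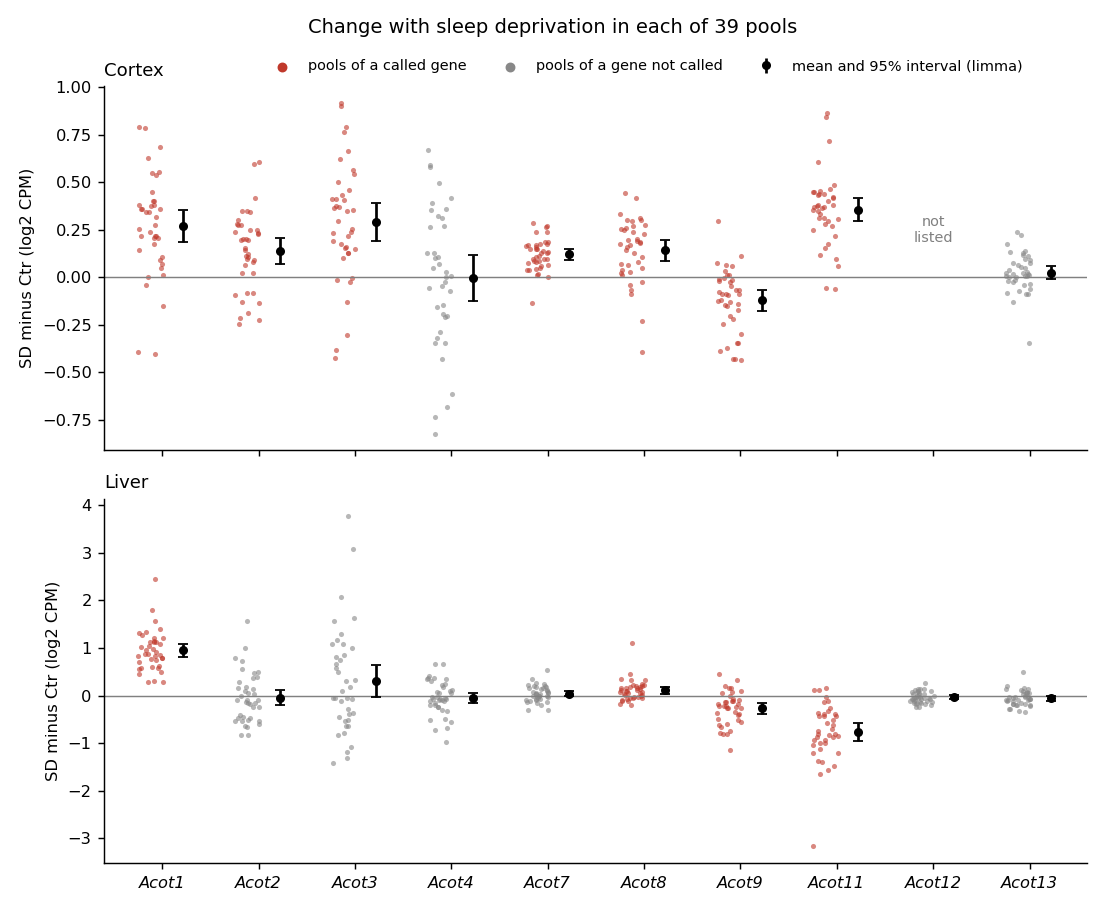
Paired change, SD minus Ctr log2 CPM, of every member in cortex and liver; each coloured point is 1 of 39 pools, red for a called gene and grey for one not called, and the black point is the mean with its 95% limma interval. Acot11 stands above 0 in cortex and below 0 in liver, Acot1 stands above 0 in all 39 liver lines, and Acot9 stands below 0 in both tissues.

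Counted over the family, 7 of 9 members passed in cortex, 6 up and 1 down, where 76.3% of all cortical genes passed (36.6% up, 39.6% down). In liver 4 of 10 passed, 2 up and 2 down, where 53.9% of all liver genes passed (26% up, 27.9% down). The share of members called was near the background in cortex and below it in liver, so the counts are no result about the family. Ctr and SD pools overlapped for all 9 members in cortex, where they did not overlap for 1.4% of genes, and for all 10 in liver, where they did not for 0.121%. The median change over members was 0.14 in cortex and -0.04 in liver, beside medians over all genes of -0.01 and -0.002.

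Acot11 stood apart from its relatives in liver. Its change was lower than that of each of the other 9 members, by -1.72 against Acot1 (lower in 39 of 39 lines), -1.08 against Acot3, -0.89 against Acot8, -0.81 against Acot7, -0.74 against Acot12, -0.73 against both Acot2 and Acot4, -0.72 against Acot13 and -0.51 against Acot9. All 9 differences passed (sign-flip permutation test over lines, two-sided, adjusted p from 1.3e-05 to 2.3e-05 over 17 tests). Even Acot9, which fell too, fell less than Acot11 in 34 of 39 lines. In cortex the change of Acot11 was higher than that of Acot9 by 0.48, Acot4 by 0.36, Acot13 by 0.33, Acot7 by 0.24, Acot2 by 0.22 and Acot8 by 0.21 (adjusted p = 1.3e-05 each, permutation). It did not pass against Acot1 (0.09, SE 0.059, adjusted p = 0.155, permutation) or Acot3 (0.07, SE 0.064, adjusted p = 0.317, permutation). With a pseudocount of 1 CPM both of these passed, at 0.13 (adjusted p = 0.0126, permutation) and 0.15 (adjusted p = 0.0059, permutation). The Acot1 contrast also passed without BXD79, BXD85 and BXD101, the lines pooled from fewer mice (0.13, adjusted p = 0.0176, permutation).

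In liver, lines differed in Acot11 far more than in most genes. Over the 33 BXD/RwwJ lines, liver Ctr pools of Acot11 spanned 16.4-fold and SD pools 73.7-fold, the latter falling to 28-fold without BXD48 and its 5 reads. The s.d. between lines in liver Ctr pools was 1.37, against 0.20 for the median gene and 0.097 expected from counting error, and it ranked 223 of 14107. A limma F test with the Ctr and SD pools as the pair of observations per line gave F = 24.2 and adjusted p = 3.9e-15, and an intraclass correlation of 0.91, the share of variance held by the line. In this test 59% of liver genes and 50.4% of cortical genes differed between lines. The Ctr levels of Acot11 in liver fell into a lower set of 19 lines, between 2.55 and 4.11, and an upper set of 14 lines, between 4.78 and 6.58, with a gap of 0.66 log2 units between them. The relation of Ctr to SD level was taken on either side of the Ctr gap. In the upper 14 lines r was 0.76 and rho 0.77 (permutation, adjusted p = 0.00122 and 0.0041 over 2 sets; r = 0.69 without the 2 lines farthest from the median). In the lower 19 lines r was 0.38 (adjusted p = 0.110, permutation) and rho 0.57 (adjusted p = 0.0122, permutation), with r = 0.28 without the 2 farthest. All 19 lower lines fell after SD, with a median change of -0.81, and 11 of the 14 upper lines fell, with a median of -0.48. These sets were drawn from the same Ctr levels that enter the relations and changes, so the correlations and medians within them are a description.

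Sublines gave a closer look at the same Acot11 levels. BXD48 held 3.22 log2 CPM in Ctr and 0.05 in SD liver, while BXD96, a subline labelled 48a, held 6.21 and 5.27. BXD65 (3.93 and 2.94) and its subline BXD97, labelled 65a (3.94 and 3.50), lay close together. So did BXD73 (2.66 and 1.45) and its subline BXD103, labelled 73b (2.93 and 2.22). The BXD48 pair was on opposite sides of the gap and the other pairs both lay below it. These pairs were not tested.

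The parents did not bracket the lines. Liver Acot11 stood at 5.47 and 5.23 in the Ctr pools and 4.66 and 4.96 in the SD pools of C57BL/6J, and at 4.89 and 4.22 (Ctr) and 3.49 and 3.0 (SD) in DBA/2J. C57BL/6J was higher in each condition without overlap. The DBA/2J minus C57BL/6J difference was -1.18 (SE 0.19, 95% interval -1.59 to -0.77), a 2.27-fold higher level in C57BL/6J, with adjusted p = 6.1e-04 (limma, 4 pools per strain). Of all liver genes 17.9% were called in this comparison (8.42% higher in DBA/2J, 9.47% lower), and 25.5% in cortex (11.6% higher, 13.9% lower). The reciprocal F1 pools, 5.90 in B6D2F1 and 6.17 in D2B6F1 for Ctr, lay above every parental Ctr pool. The D2B6F1 Ctr library was among those that stood apart. The SD pools of the reciprocal F1, 4.52 and 4.68, lay between the DBA/2J pools and the higher C57BL/6J pool. Of the 33 lines, 19 lay below all parental Ctr pools and 9 above them, and 18 and 9 did so for SD pools. The 4 BXD/TyJ lines lay between 3.11 and 4.37 in Ctr and between 2.23 and 2.90 in SD liver.

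Acot9 was the other member called between the parents, lower in DBA/2J liver by -0.54 (SE 0.17, adjusted p = 0.0452). The call was lost with median-centred libraries (0.0524), after quantile normalization (0.0576), without the variance trend (0.120) and when any of 6 of the 8 libraries was left out: Ctr C57BL/6J first pool (-0.45, adjusted p = 0.124), Ctr DBA/2J first pool (0.104), Ctr DBA/2J second pool (0.0588), SD C57BL/6J first pool (0.130), SD C57BL/6J second pool (0.0510) and SD DBA/2J second pool (-0.39, adjusted p = 0.132). In cortex 0 of 9 members were called between the parents by limma, while 1 (Acot13) had an interval that left out 0 and hence an unadjusted p under 0.05. Cortical Acot13 was lower in DBA/2J by -0.13 (adjusted p = 0.102), and it passed when pools were paired by breeding phase (0.0379) and without the second C57BL/6J Ctr pool (-0.16, adjusted p = 0.0498). Cortical Acot11 differed by -0.09 (95% interval -0.20 to 0.03, adjusted p = 0.253).

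**Figure D4:**
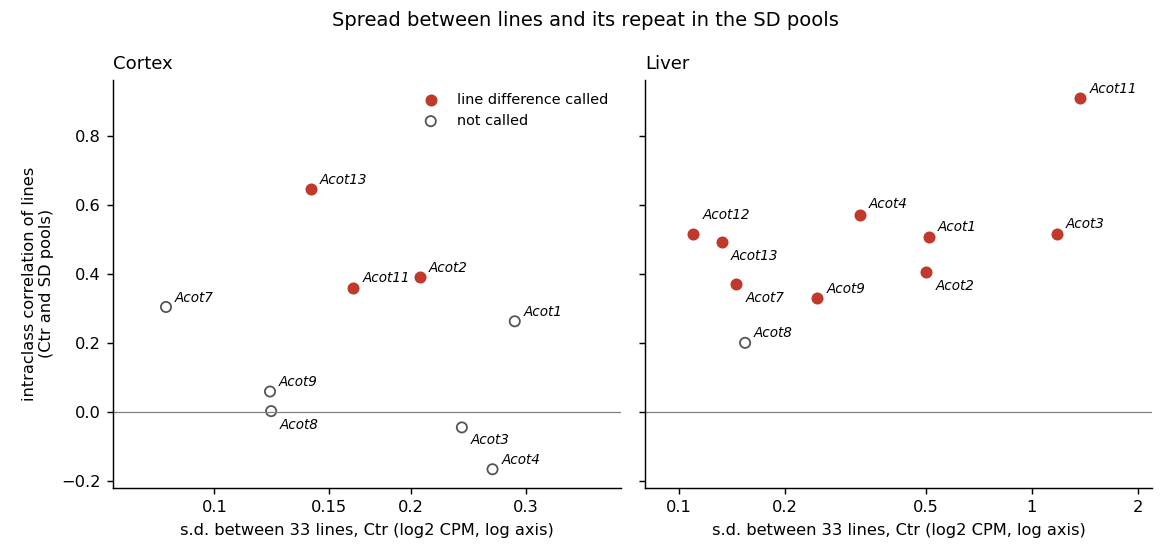
Standard deviation between the 33 BXD/RwwJ lines in Ctr pools (log2 CPM, log axis) against the intraclass correlation of Ctr and SD pools, for each member in each tissue, filled where the line difference was called. Liver Acot11, at 1.37 and 0.91, lies alone at the upper right; liver Acot3 has a similar spread, 1.18, with a lower correlation of 0.52.

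Line differences were also tested in the rest of the family. In liver 9 of 10 members were called, beside 59% of all genes, Acot8 being the exception (F = 1.55, adjusted p = 0.133), which passed without BXD50 and BXD70 (adjusted p = 0.0103). Acot3 spanned 26.9-fold in Ctr and 40.5-fold in SD pools (F = 3.71, adjusted p = 3.8e-04). Its intraclass correlation was 0.52, so that a line high in Acot3 in its Ctr pool was less sure to be high in its SD pool than for Acot11. Without BXD95, at 9 reads, the SD pools of Acot3 spanned 15.1-fold. Acot1 spanned 8.34-fold in Ctr pools (adjusted p = 6.5e-04), or 3.59-fold without BXD81, Acot2 spanned 5.10-fold, or 3.35-fold without BXD81, and Acot12 1.36-fold (adjusted p = 0.00167). In cortex 3 of 9 were called, a share below the 50.4% of all genes. Acot13 was the clearest (F = 4.58, adjusted p = 3.3e-05, intraclass correlation 0.65), followed by Acot11 (F = 2.49, adjusted p = 0.00997) and Acot2 (adjusted p = 0.0387). The Acot2 call was lost after quantile normalization (0.114) and without BXD56 and BXD90 (0.0632), which in turn brought Acot1 (0.0388) and Acot7 (0.0254) past the threshold. The cortical lines of Acot11 spanned 1.60-fold in Ctr pools, against 16.4-fold in liver. Their s.d. in cortex was 0.16, rank 6162 of 14896, beside 0.14 for the median gene.

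Liver and cortex levels of a member were not related across lines in any test that passed. Over 33 lines and 9 members the Ctr levels gave adjusted p of 0.497 or more for r and rho (permutation, 9 relations), Acot11 included.

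Within a tissue, the clearest relation between members was that of the neighbours Acot3 and Acot4 in liver, both peroxisomal. Their Ctr levels had r = 0.90 and rho = 0.89, and their SD levels r = 0.95 and rho = 0.90 (33 lines, permutation, adjusted p = 4.1e-04 for r and 8.1e-04 for rho over 162 relations). Without the 2 lines farthest from the median in Acot3, r was 0.89 and 0.92. Both ranged in step at different amplitude: from the lowest to the highest line, Acot3 spanned 26.9-fold and Acot4 2.71-fold in Ctr pools, and BXD51 was highest in both genes in Ctr pools. In SD pools BXD95 was lowest and BXD48 highest in both genes. Among all 14106 other liver genes, Acot4 had the highest absolute rho with Acot3 in Ctr pools and again in SD pools, a comparison made after the values were seen. The next gene, Abcb1a, reached 0.71 and 0.50. Of the 100-base stretches of Acot3, 21 recurred in Acot4, and the part of shared reads in this relation was not tested.

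**Figure D5:**
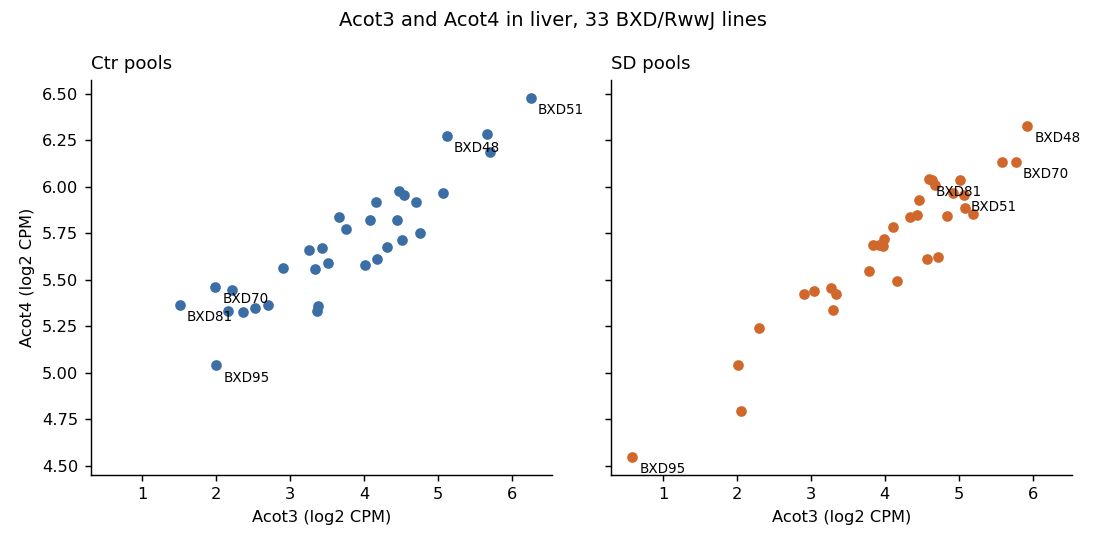
Acot3 against Acot4 liver levels (log2 CPM) in the 33 BXD/RwwJ lines, Ctr pools in one panel and SD pools in the other; each point is 1 line. The points follow a line in both panels (r = 0.90 and 0.95), with Acot3 covering a far wider range than Acot4.

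Other relations between members had smaller r in absolute value, and examples that passed follow. In cortex Acot7 and Acot13 varied together in Ctr pools (r = 0.77, rho = 0.61, adjusted p = 4.1e-04 and 0.0059, permutation) and in SD pools (r = 0.51, rho = 0.56, adjusted p = 0.0123 and 0.0150, permutation). The Ctr value leaned on BXD90, and r was 0.59 without the 2 farthest lines. Cortical Acot9 and Acot11 went in opposite directions in Ctr pools (r = -0.55, rho = -0.65, adjusted p = 0.0067 and 0.0041, permutation, r = -0.56 without the 2 farthest). In SD pools the pair did not pass (r = 0.18, rho = 0.22, adjusted p = 0.515 and 0.478, permutation). In liver Acot12 and Acot13 varied together in Ctr (r = 0.62, rho = 0.67, adjusted p = 0.00185 and 0.0032, permutation) and SD pools (r = 0.61, rho = 0.53, adjusted p = 0.0024 and 0.0191, permutation). Without the 2 farthest lines r was 0.67 in Ctr and 0.45 in SD pools. BXD70, whose liver SD library stood apart, held the highest Acot13 level there, and the relation was not computed without that line by itself. Pools of a line share a library with every gene in it, so the points of each relation also share depth and any quality difference between libraries. Liver Acot11 was in none of the relations that passed.

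The genes most like Acot11 across the 33 lines were named by the absolute rho over Ctr pools, as a description. In liver these were Tceanc2 (rho 0.745 in Ctr, 0.69 in SD pools), Ndc1 (0.71 and 0.72), Mgat5 (0.70 and 0.49), Eif6 (-0.70 and -0.51) and Cdk12 (0.66 and 0.30). Tceanc2 and Ndc1 lie on the same chromosome as Acot11, 0.39 and 0.62 Mb from it, and the other 3 lie on other chromosomes. In cortex they were Ctnnd1 (0.73 and 0.30), Akt2 (0.72 and 0.16), Acsl6 (0.70 and 0.35), Chd9 (0.68 and 0.55) and 4930402H24Rik (0.68 and 0.04), none of them on chromosome 4. The 5 genes of either tissue were picked on the Ctr pools, so a lower value in SD pools follows in part from that choice. Acsl6, a synthetase of long-chain acyl-CoA in brain, catalyses the reverse of the thioesterase step.

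Of the remaining thioesterases, 6 of 7 listed in cortex passed, 2 up and 4 down, beside 76.3% of all genes. Acot5, a peroxisomal neighbour of Acot3, rose by 0.66 (SE 0.064, adjusted p = 5.9e-13) in 38 of 39 lines, from 0.87 ± 0.30 to 1.53 ± 0.27 log2 CPM (mean ± s.d., n = 39). Ppt2, a lysosomal thioesterase, rose by 0.23 (adjusted p = 1.0e-14). Acot6 fell by 0.15 (adjusted p = 0.0036; -0.08 and 0.128 after quantile normalization) and Acot10, the near copy of Acot9, fell by 0.15 (adjusted p = 1.1e-04). In liver 4 of 7 passed, beside 53.9% of all genes, 2 up (Them4 by 0.13, adjusted p = 6.3e-05, and Ppt2 by 0.07, adjusted p = 0.0066) and 2 down (Them6 by -0.20, adjusted p = 6.8e-04, and Them5, a mitochondrial enzyme, by -0.42, adjusted p = 0.0260). Them5 lost its call without the block (0.269), after quantile normalization (0.0736) and without BXD79, BXD85 and BXD101 (0.0504).

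The synthetases that run the opposite reaction were called in 11 of 20 cases in liver, 2 up and 9 down, beside 53.9% of all genes, with a median of -0.04. Acsl3, a long-chain synthetase of lipid droplets, fell by 0.73 (SE 0.053, adjusted p = 5.4e-16) in 39 of 39 lines, from 7.10 ± 0.24 to 6.37 ± 0.27 log2 CPM (mean ± s.d., n = 39), and Acss1, a mitochondrial acetyl-CoA synthetase, fell by 0.50 (adjusted p = 0.0040). Slc27a2 rose by 0.08 (adjusted p = 0.0044; 0.0532 without the block) and Acsl1, the main hepatic form, rose by 0.07 (adjusted p = 0.0033). In cortex 11 of 16 passed, beside 76.3% of all genes, 7 up and 4 down, with a median of 0.01. Slc27a5 rose by 0.33 (adjusted p = 0.00157), from a low mean Ctr level of -0.47 log2 CPM, and Slc27a3 by 0.30 (adjusted p = 8.0e-08). Acsf3 fell by 0.25 (adjusted p = 2.4e-17) in 39 of 39 lines, where 11.2% of cortical genes moved in a common direction in every line, and Acsl1 fell by 0.24 (adjusted p = 5.3e-19).

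Binding proteins for acyl-CoA and fatty acids were called in 9 of 9 cases in cortex, 6 up and 3 down, beside 76.3% of all genes, and in 4 of 11 in liver, 2 up and 2 down, beside 53.9%. Acbd3, a Golgi protein, rose in both tissues, by 0.15 in cortex (adjusted p = 3.4e-14) and 0.18 in liver (adjusted p = 6.7e-09). Acbd4 fell in both, by 0.25 (adjusted p = 1.4e-13) and 0.14 (adjusted p = 8.3e-06). Acbd5, a peroxisomal tether, fell in liver by 0.16 (adjusted p = 3.1e-10), and Fabp4 rose there by 0.13 (adjusted p = 0.0048; 0.0826 without the block). Fabp5 fell in cortex by 0.19 (adjusted p = 3.2e-08; 0.155 without the block). Pctp, the partner of Acot13, rose in cortex by 0.19 (adjusted p = 0.0333), a call lost without the block (0.198), in the 33 BXD/RwwJ lines (0.0814), without BXD79, BXD85 and BXD101 (0.0901), and when any of BXD45, BXD64, BXD67, BXD79, BXD81, BXD95, BXD98 or D2B6F1 was left out singly.

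PPARalpha and its target genes other than Acot genes were called in 17 of 28 cases in liver, 16 up and 1 down, beside 53.9% of all genes (26% up, 27.9% down), with a median of 0.07. Angptl4, a lipase inhibitor, rose by 0.98 (SE 0.047, adjusted p = 5.8e-22) in 39 of 39 lines, from 6.55 ± 0.26 to 7.54 ± 0.22 log2 CPM (mean ± s.d., n = 39), a change close in size to that of Acot1. Cyp4a14, a fatty acid omega-hydroxylase, rose by 0.84 (SE 0.16, adjusted p = 2.2e-05) in 30 of 39. The fall was that of Pdk4, a brake on pyruvate dehydrogenase, by 0.95 (SE 0.095, adjusted p = 1.0e-11) in 37 of 39. In cortex 14 of 21 passed, beside 76.3% of all genes, 8 up and 6 down, with a median of 0.02, among them Angptl4 (0.59, adjusted p = 5.9e-09), Cd36 (-0.69, adjusted p = 2.6e-08) and Ehhadh (-0.42, adjusted p = 1.9e-11). Beside this list, Acot1 rose by 0.95 in liver, while Acot2, Acot3 and Acot4 gave -0.04, 0.31 and -0.05 and were not called.

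Levels of genes that mark other cell types are given beside these changes with no test. Summed over all 4 B cell genes of the list, the liver level went from a median of 12.3 CPM in Ctr (6.45 to 26.4) to 5.17 in SD pools (2.30 to 12.7). The 2 of 5 neuronal genes listed in liver, Syt1 and Rbfox3, went from 68.0 (45.3 to 113) to 38.3 CPM (22.4 to 55.1), with Snap25, Slc17a7 and Gad1 not listed. The 1 of 5 exocrine pancreas genes listed, Cela2a, went from 3.57 (0.147 to 7.64) to 1.64 CPM (0.149 to 5.12). The 1 of 5 adipocyte genes listed, Cidec, went from 3.42 (0.878 to 19.1) to 5.86 CPM (2.28 to 29.7), while Ucp1, Adipoq, Plin1 and Retn were not listed in liver. The 1 of 5 erythroid genes listed in liver, Alas2, had medians of 243.8 and 249.6 CPM, and the 1 of 5 choroid plexus genes, Clic6, 0.761 and 0.585. The summed hepatocyte genes had medians of 2626 and 2729 CPM. In cortex 1 of 5 hepatocyte genes was listed, at no more than 1.00 CPM, none of the 4 B cell genes was listed, and choroid plexus genes (2 of 5 listed) had medians of 5.44 and 5.19 CPM, reaching 26.5 in the SD pool of BXD79. The part of these cell types in the changes of the thioesterase genes was not tested.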

How the data were processed

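RNA of several mice was pooled per line, tissue and condition and sequenced as stranded, single-end mRNA libraries, per the study's methods. The authors aligned reads to mm9 with STAR, counted them per RefSeq gene with HTSeq, removed genes of low count, and deposited log2 CPM after TMM scaling in edgeR, a table per tissue and condition. Low values step in whole reads. Of 1281056 cortex and 1213202 liver values, 100% were whole within 0.02 read, with a prior count near 1, and these reads give the depths and read numbers quoted. Tests used the log2 CPM values with no further pseudocount.

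SD changes were fitted with limma 3.58.1 in R 4.3.3 (lmFit, line as a block, eBayes with a variance trend), two-sided, with Benjamini-Hochberg adjustment over all listed genes and a call at adjusted p under 0.05. The study's methods name no block. Ctr and SD libraries of a line come from the same genotype, and their deviations from the group means correlated by at least 0.299 in cortex and 0.169 in liver (medians 0.614 and 0.475 over 39 pairs; 37 of 39 correlated best with their own line in either tissue). Differences between tissues were fitted on paired changes, line differences by an F test over 33 lines, and C57BL/6J against DBA/2J over 8 libraries per tissue. Differences between members used sign-flip permutation tests with 100000 resamples (Python 3.11.15, scipy 1.17.1, numpy 2.4.6, pandas 2.3.3; figures with matplotlib 3.10.9). The fits were tested on simulated data. Alternatives were no block, median-centred libraries, quantile normalization, no variance trend, a filter at mean log2 CPM of 0, other sets of pools, a pseudocount of 1 CPM and leaving out each pool. Exon lengths, coding sequences and gene positions come from GENCODE on mm9.

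All members were named. Per tissue and list (other thioesterases, synthetases, binding proteins, PPARalpha targets), up to 2 called genes that rose most and up to 2 that fell most were named, and the 5 genes most like Acot11 by absolute rho; 1 gene that this rule names is not reported here. Members and lists were chosen with earlier results of these data known.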

Additional observations from a re-analysis of the deposited data

Results flagged for a closer look

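In 5 members the change with SD differed between tissues by the test of the difference itself (liver minus cortex, limma over 39 lines). These were Acot1 at 0.68, Acot11 at -1.13, Acot9 at -0.15, Acot7 at -0.0817 and Acot13 at -0.0796. The Acot1 and Acot11 differences passed under every alternative that was run, with adjusted p of at most 1.6e-07 and 0.00173, and the other 3 did not.

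The 4 BXD/TyJ lines, which entered no main comparison, were examined for a line far from the other 3. Of 57 groups of 4 values, 4 held such a line by Dixon's criterion, where chance gives about 1 in 20 groups. The cortical change of Acot2 was -0.17 in BXD29, against 0.13 to 0.16 in the other lines. Acot13 stood at 5.55 log2 CPM in the cortex Ctr pool of BXD5, against 5.13 to 5.18. Acot4 stood at 6.12 in the liver SD pool of BXD5, against 5.28 to 5.39. Acot13 stood at 5.50 in the liver SD pool of BXD29t, against 5.77 to 5.81.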

How the results depend on the processing

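Over the members, 1809 values of 66 results were recomputed under other settings. Of these, 1754 stayed on their side of the threshold, 38 lost a call, 17 gained a call and 0 changed sign with a call in either setting. A change of sign without a call in either setting counted among the 1754. Cortical Acot4, for example, was -0.001 in the main fit and up to 0.09 under other settings. The F tests of line differences have no direction. The changes of Acot1 and Acot11 in both tissues and the liver line and strain differences of Acot11 kept their calls in each. Of 119 recomputed contrasts of Acot11 with a relative, 3 gained a call, all in cortex: against Acot1 with a pseudocount of 1 CPM (0.134) and without BXD79, BXD85 and BXD101 (0.133), and against Acot3 with that pseudocount (0.148). With a pseudocount the changes of genes of few reads shrink by construction. Median-centring shifts all genes of a library alike and cancels in these contrasts. Its values among the 119 therefore equal the main ones by construction and show no stability. Counts of genes called stayed within 1.5 times in all 193 fits. Leaving out single pools gave 11289 to 11567 cortical and 7453 to 7895 liver genes changed by SD (11359 and 7603 with all), and 7208 to 7528 for the tissue difference (7312).

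Pairing by line, the replicate block, mattered in liver: without it Acot11 had adjusted p = 0.0362, and the tissue differences of Acot7 (0.0731), Acot9 (0.0804) and Acot13 (0.138) were not called. For the parents, pairing pools by breeding phase brought cortical Acot13 to 0.0379. It changed no other call of a member.

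Depth limits the low genes. Cortical Acot3 and Acot4 had means of 48.3 and 33.0 reads in Ctr pools and liver Acot2 51.8, so that counting error alone gives an s.d. of 0.21, 0.25 and 0.20 on the log2 scale. Some genes named beside the members also had low mean Ctr levels in log2 CPM. These included cortical Slc27a5 (-0.47), Cd36 (-0.33), Pctp (0.06) and Angptl4 (0.64) and liver Acss1 (0.36) and Them5 (1.07). With 1 pool per line and condition, the spread between mice of a line was not measured.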
